A study of Mus musculus with 30 samples.

Results

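Arntl, Clock, Npas2, Nfil3 and Cry1, 5 genes of the circadian clock chosen by name, were followed through all of their probe sets in salivary gland of autoimmune-prone mice. They are 5 of 18194 genes with a probe set, and all 5 were among the 12999 genes tested. RNA had been taken from the whole salivary gland of females of NOD.H-2h4, a strain used as a model of Sjögren-like gland inflammation, and hybridised to 30 Affymetrix Mouse Genome 430 2.0 arrays. Every mouse had received 1 intraperitoneal dose of antibody, 20 mg/kg, when 4 weeks old. The antibody was anti-CD40L, which binds the T cell ligand of the receptor CD40, or a human IgG1 isotype control. The 6 groups, of 5 arrays each, were anti-CD40L glands of weeks 8, 16 and 24 and control glands of weeks 8, 16 and 24, and no untreated mice are among them. The labels call the 5 arrays of a group biological replicates. They give neither the hour of day of collection nor whether the mice of a group were collected together, so treatment or week and the hour of collection cannot be told apart for any of these genes.

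The clock is a feedback loop present in most cells. BMAL1, encoded by Arntl, pairs with CLOCK or with its relative NPAS2, and the pair switches on genes that carry an E-box, among them the Per and Cry genes, whose products then block the pair. The same pair switches on the nuclear receptors REV-ERBα and REV-ERBβ (Nr1d1 and Nr1d2). These repress Arntl, Npas2, Clock, Nfil3 and Cry1 through ROR elements, on which ROR receptors act as activators. In peripheral tissues of mice Arntl and Npas2 transcripts peak around the end of the night and the start of the day, out of phase with Dbp, Tef, Per3 and Nr1d2. NFIL3 is a repressor that competes with the activators DBP, TEF and HLF for D-box sites.

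Short stretches of the promoters are shown because the ROR element is the site through which these genes are known to be switched in phase. The windows were 300 bases, from 250 before to 50 after each start site listed by RefSeq in mouse build GRCm38.p6, 8 windows in all for the 5 genes. Both strands were searched for the ROR core AGGTCA, its longer form TAGGTCA, which contains the core, the E-box CACGTG and the D-box TTANGTAA. Each stretch is written along its gene, and capitals mark the match.
Arntl, chr7:113207530-113207559, plus strand: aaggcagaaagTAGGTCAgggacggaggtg
Nfil3, chr13:52981040-52981091, minus strand: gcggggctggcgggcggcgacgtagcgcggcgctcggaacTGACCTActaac
Clock, chr5:76303576-76303661, minus strand: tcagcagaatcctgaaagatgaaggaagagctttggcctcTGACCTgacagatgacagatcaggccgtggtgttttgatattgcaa
Cry1, chr10:85185069-85185154, minus strand: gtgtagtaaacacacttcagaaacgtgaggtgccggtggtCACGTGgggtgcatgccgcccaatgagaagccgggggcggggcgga
The longer ROR form began at base 31 from an Arntl start site, and on the opposite strand it covered bases from -12 of the Nfil3 start, where a minus sign means before the start. The core alone lay on the opposite strand at -119 in 1 of the 3 Clock windows, and the Cry1 window held an E-box at -60. The Npas2 window held none of these letters, and no window of the 5 genes held the D-box. Among 32851 mouse promoter windows of the same length, 2.61% held the longer ROR form, 16.3% the core, 7.15% the E-box and 2.32% the D-box. Of 20 other clock genes with a window, 0 held the longer ROR form, 3 the core, 5 the E-box and 3 the D-box.

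The genes differed in how well the arrays measured them. Values are log2 intensities, and levels of different genes or probe sets are not comparable on this scale. Nfil3 (probe set 1418932_at) and Cry1 (1433733_a_at) had 1 probe set each, above the median of the array in 30 and 28 of the 30 arrays. Arntl was represented by 1425099_a_at, above the median in 23 arrays, and its other probe set 1457740_at was above it in 8. Clock was represented by 1418659_at, above the median in all 30 arrays, as was 1418660_at, while 1435775_at was above it in 28. One further Clock probe set, 1439314_at, was above the median in no array and was not tested. Npas2 was represented by 1421036_at, above the median in 16 arrays, and its other probe set 1421037_at was above it in 6. Of those 6 arrays, 5 were the anti-CD40L arrays of week 16 and 1 was of another group, so 1421037_at met the filter of 5 arrays only through the group in which it was highest. Its values, and its correlation with Arntl, are therefore given as a description, with no p and no fold. The closing section names the counts of calls that take it in, and they are not support for a difference.

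At week 8 none of the 5 genes passed the test between treatments. Arntl read 5.75, 7.46, 5.85, 6.43 and 6.04 in anti-CD40L arrays, against 6.41, 6.83, 6.53, 5.72 and 6.62 in control arrays. Nfil3 read 8.52, 9.38, 8.51, 8.72 and 8.18 in anti-CD40L arrays, against 8.31, 8.68, 8.76, 8.29 and 8.35 in control arrays. Anti-CD40L replicate 2 was the highest array for both genes, and the groups overlapped. The log2 differences of the 5 genes, anti-CD40L minus control, lay between -0.14 for Cry1 and 0.19 for Nfil3, and the widest 95% interval was that of Arntl, -0.76 to 0.52. Over all genes tested 0.0692% were called in either direction at that week, at an adjusted p under 0.05 in limma, and 0% were called higher, while 2020 genes had an unadjusted p under 0.05.

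At week 16 Arntl was 4.22-fold higher in anti-CD40L glands, the 10th smallest p among the 12999 genes. Its log2 values were 8.08, 6.83, 7.42, 8.33 and 8.17 in anti-CD40L arrays, against 5.24, 5.50, 5.41, 5.96 and 6.33 in control arrays. The groups did not overlap, anti-CD40L replicate 2 and control replicate 5 lying nearest to each other. The log2 difference was 2.08 ± 0.31 (SE, limma, adjusted p = 0.000401). At this week 1.88% of all genes were called in either direction, 1.31% were called higher, and 6.03% had all 5 anti-CD40L arrays above all 5 controls.

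The second Arntl probe set, 1457740_at, averaged 5.32 in anti-CD40L and 5.26 in control arrays at week 16, a difference of 0.06 ± 0.14 (limma over probe sets, adjusted p = 0.927), where 1.7% of 21830 probe sets were called. The higher level was thus read by 1 of the 2 Arntl probe sets. With the median over both in place of the brighter one the Arntl difference was 1.07 and was called.

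Npas2, the partner that can replace CLOCK, did not pass by its representative probe set. Probe set 1421036_at read 5.84, 5.39, 5.67, 6.08 and 5.89 in anti-CD40L arrays at week 16, against 5.37, 5.33, 5.26, 5.37 and 5.39 in control arrays. Its groups separated by less than 0.01, with anti-CD40L replicate 2 beside control replicate 5, and the difference of 0.43 ± 0.14 did not pass (limma, adjusted p = 0.126). Probe set 1421037_at read 6.38, 5.68, 5.72, 6.45 and 7.06 in anti-CD40L arrays, against 4.40, 4.09, 4.58, 4.77 and 5.10 in control arrays, and was singled out after its values were seen. Every anti-CD40L array lay above the array median, which is how this probe set met the filter, and every control array lay below it. The separation is thus no support for a difference.

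Nfil3, the D-box repressor, had log2 values of 9.96, 9.01, 9.11, 9.95 and 9.51 in anti-CD40L arrays at week 16, against 7.89, 8.98, 8.24, 8.04 and 9.59 in control arrays. The ranges overlapped because control replicate 5 stood among the anti-CD40L arrays. The difference of 0.96 ± 0.28 did not pass (limma, adjusted p = 0.0755), and without control replicate 5 it did (limma, adjusted p = 0.0181). In the other 9 of 10 fits without 1 array it did not pass (highest adjusted p = 0.225 in limma).

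Clock, the partner of BMAL1, had 8.21, 8.26, 8.25, 8.55 and 8.75 in anti-CD40L arrays at week 16, against 7.70, 7.80, 7.88, 7.65 and 8.43 in control arrays. Again replicate 5 was the control array inside the anti-CD40L range, and the difference of 0.51 ± 0.24 did not pass (limma, adjusted p = 0.316). Cry1, the repressor of the loop, had 7.29, 6.32, 6.08, 7.14 and 7.39 in anti-CD40L arrays, against 6.63, 7.23, 6.54, 6.14 and 6.60 in control arrays. The Cry1 ranges overlapped almost entirely, and the interval of the difference ran from -0.28 to 0.71.

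**Figure D1:**
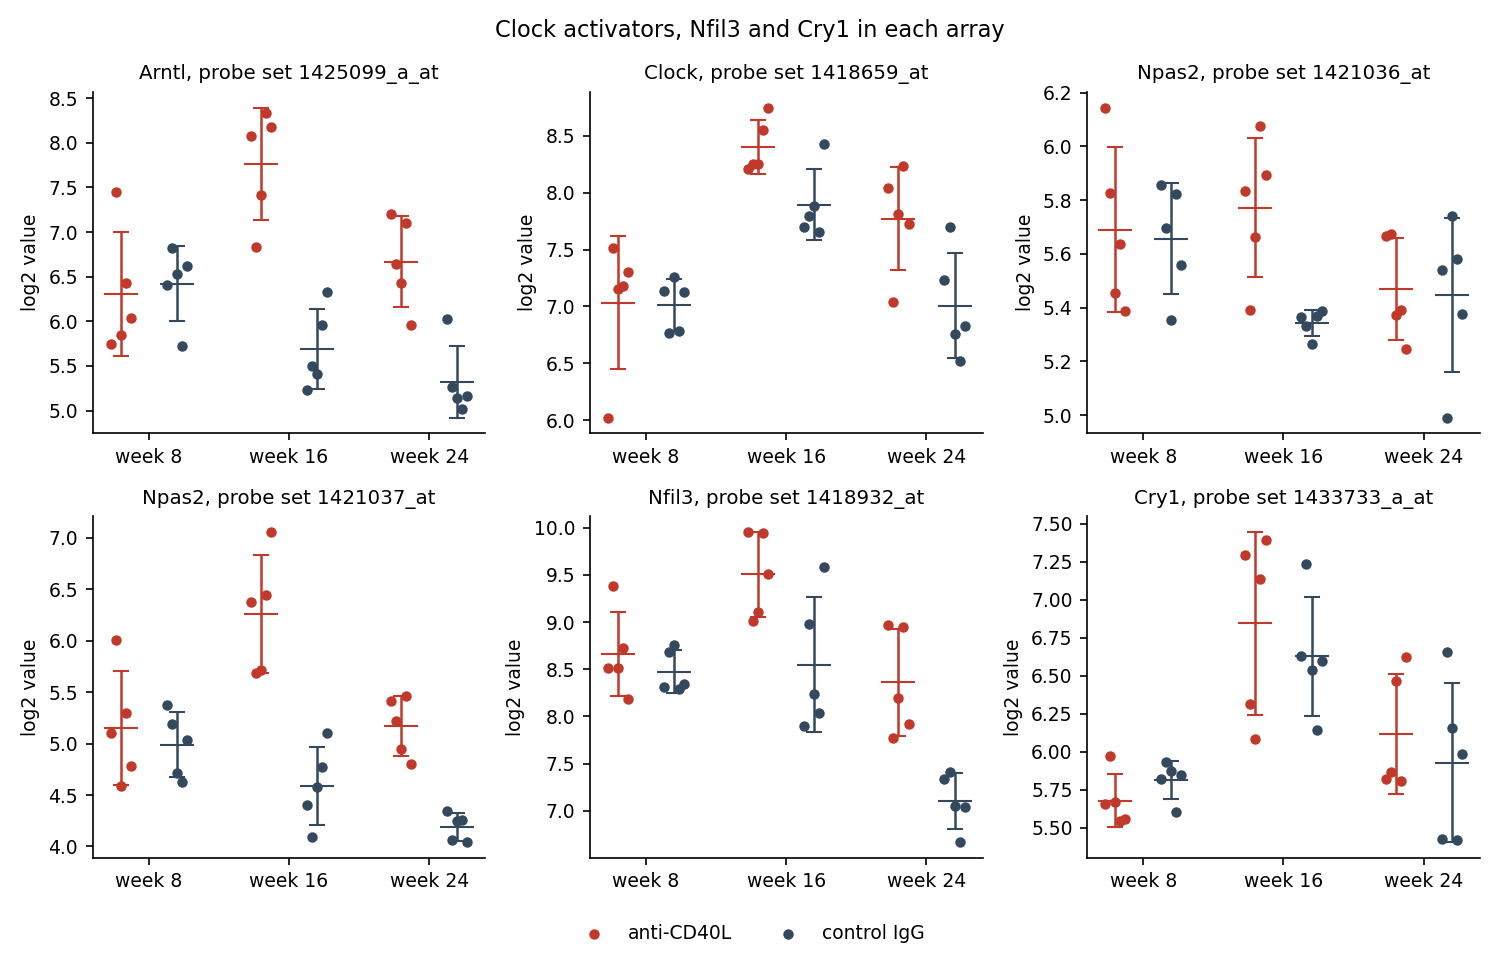
Log2 values of each array for Arntl, Clock, both Npas2 probe sets, Nfil3 and Cry1, at weeks 8, 16 and 24, with anti-CD40L (red) left of control IgG (dark blue). Points are arrays, the horizontal tick is the mean of 5 arrays and the bars are ± 1 SD, and each panel has its own log2 axis. At week 16 the Arntl arrays of anti-CD40L lie between 6.83 and 8.33 and those of control between 5.24 and 6.33, whereas the Cry1 groups overlap at every week.

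At week 24 Arntl, Nfil3 and Clock were called higher in anti-CD40L glands. Arntl read 7.21, 6.64, 6.43, 7.10 and 5.96 in anti-CD40L arrays, against 6.03, 5.26, 5.14, 5.02 and 5.16 in control arrays. One control array, replicate 1, lay just above the lowest anti-CD40L array, replicate 5, and the other arrays were apart. The difference was 1.34 ± 0.31, or 2.54-fold (limma, adjusted p = 0.0115). At this week 9.45% of all genes were called in either direction, 5.96% were called higher, and 6.38% had all anti-CD40L arrays above all controls.

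Nfil3 read 8.97, 7.77, 8.19, 8.95 and 7.92 in anti-CD40L arrays at week 24, against 7.33, 7.42, 7.06, 6.67 and 7.04 in control arrays. The groups did not overlap, and the difference was 1.26 ± 0.28, or 2.39-fold (limma, adjusted p = 0.00989). Clock read 8.04, 7.04, 7.81, 8.24 and 7.72 in anti-CD40L arrays, against 7.23, 7.70, 6.76, 6.52 and 6.83 in control arrays. Anti-CD40L replicate 2 lay inside the control range, and control replicate 2 just under the other anti-CD40L arrays. The Clock difference of 0.76 ± 0.24 was near the threshold (limma, adjusted p = 0.0435), and the call was lost in 6 of 11 other settings. Of the 10 fits without 1 array of these groups, the Clock call held in the 2 without a replicate 2 and was lost in the others (highest adjusted p = 0.124 in limma). The other tested Clock probe sets, 1418660_at and 1435775_at, gave 0.34 ± 0.12 and 0.55 ± 0.23 and did not pass (limma over probe sets, adjusted p = 0.0664 and 0.115), where 8.54% of probe sets were called.

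Npas2 probe set 1421037_at read 5.41, 5.22, 4.94, 5.47 and 4.80 in anti-CD40L arrays at week 24, against 4.34, 4.06, 4.25, 4.26 and 4.04 in control arrays. All 10 values were below the median of their array. The representative Npas2 probe set differed by 0.02 ± 0.14, with an interval of -0.27 to 0.32, and Cry1 by 0.19 ± 0.24, with an interval of -0.31 to 0.68.

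RNA quality moved with treatment at week 24. The difference between the 3′ and the 5′ control probe sets of Gapdh and Actb, which grows as RNA is degraded, was 0.201 ± 0.036 in anti-CD40L and 0.406 ± 0.121 in control arrays (SD, n = 5 each, exact permutation test, adjusted p = 0.0476 over 36 tests). The median correlation of an array with the others differed too, at 0.985 ± 0.0019 in anti-CD40L and 0.979 ± 0.0056 in control arrays (SD, n = 5 each, exact permutation test, adjusted p = 0.0476), control replicate 1 being the lowest at 0.969. With the 3′ to 5′ difference in the model the week 24 values were 1.19 for Arntl, 1.22 for Nfil3 and 0.64 for Clock, and none passed (limma, adjusted p = 0.185, 0.136 and 0.402). Without the 5 arrays of lowest correlation, control replicate 1 of week 24 among them, they were 1.52, 1.32 and 0.82 and passed. The same model called 23 of all genes at week 24, against 1229 without it. At week 16 the 3′ to 5′ difference was 0.260 in anti-CD40L and 0.291 in control arrays, and with it in the model Arntl differed by 2.06 (limma, adjusted p = 0.000542). The week 8 means were about as far apart as those of week 24, at 0.369 ± 0.098 in anti-CD40L and 0.566 ± 0.198 in control arrays. That difference did not pass (SD, n = 5 each, exact permutation test, adjusted p = 0.163), and week 8 enters every comparison with that week.

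Markers of other cells also differed between treatments. The mean of 6 lymphocyte markers was 4.77 in anti-CD40L and 5.65 in control arrays at week 16 (ranges 4.65 to 4.93 and 4.86 to 6.92), and 5.07 against 7.38 at week 24 (ranges 4.84 to 5.59 and 6.07 to 8.44, exact permutation test, adjusted p = 0.0571 and 0.0476). The mean of 3 plasma cell markers was 6.55 in anti-CD40L and 8.71 in control arrays at week 16, and 7.76 against 9.61 at week 24 (exact permutation test, adjusted p = 0.0476 at both), while at week 8 it was 6.21 against 7.40 (exact permutation test, adjusted p = 0.0571). The mean of 4 fibroblast markers was 9.36 in anti-CD40L and 10.1 in control arrays at week 16 (exact permutation test, adjusted p = 0.0476). At week 24 the fibroblast mean lay the other way, at 10.12 in anti-CD40L and 9.80 in control arrays, and the mean of 4 acinar markers was 12.55 against 12.23 (exact permutation test, adjusted p = 0.0571 each). Each of the 6 lymphocyte markers was above the array median in some arrays and below it in others. The part of these cells in the results was not tested, and in whole gland fewer cells of a type and less RNA per cell cannot be told apart.

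**Figure D2:**
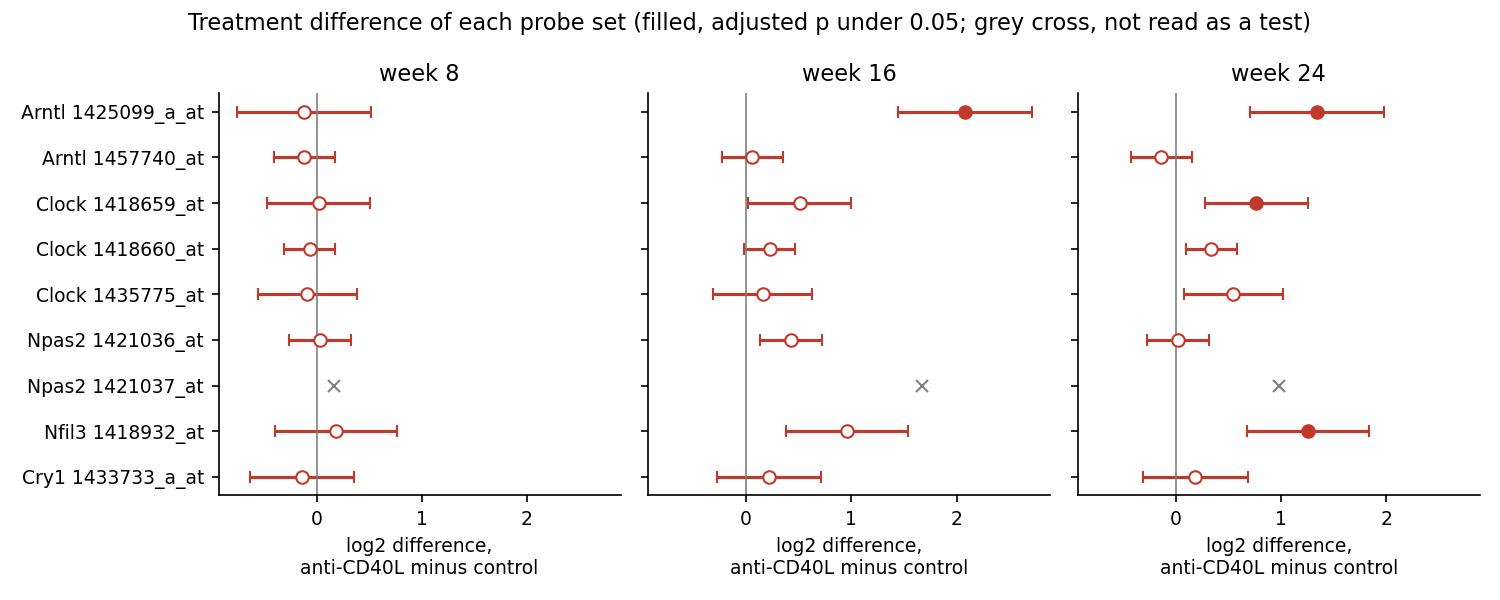
Log2 differences, anti-CD40L minus control, of 9 probe sets at weeks 8, 16 and 24, with 95% intervals from limma and filled points where the adjusted p was under 0.05. The grey cross is Npas2 1421037_at, with no interval because it met the filter only through 1 group. Filled points are Arntl 1425099_a_at at week 16, and Arntl 1425099_a_at, Nfil3 and Clock 1418659_at at week 24, all to the right of 0.

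From week 8 to week 16, Clock and Cry1 rose in both treatments. Clock rose by 1.37 ± 0.24 in anti-CD40L glands and by 0.88 ± 0.24 in control glands (limma, adjusted p = 0.000263 and 0.00463), with no week 8 array of either treatment reaching the week 16 range. Cry1 rose by 1.16 ± 0.24 in anti-CD40L glands and by 0.81 ± 0.24 in control glands (limma, adjusted p = 0.0011 and 0.00853), likewise without overlap. The control calls of both genes were lost with the 3′ to 5′ difference in the model, in which Clock differed by 0.72 and Cry1 by 0.70 (limma, adjusted p = 0.163 and 0.18). The other Clock probe sets gave smaller differences. Probe set 1435775_at differed by 0.65 ± 0.23 in anti-CD40L and 0.40 ± 0.23 in control glands, and 1418660_at by 0.17 ± 0.12 and -0.12 ± 0.12. Of these 4 values the first passed (limma over probe sets, adjusted p = 0.0285), and with the median over its probe sets Clock in control glands differed by 0.20 and was not called. Between those weeks 36.5% of all genes were called within anti-CD40L and 46.5% within control, so calls were common over that span. The share of all genes without overlap was not counted over it, so the separation of Clock and Cry1 is a description.

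Arntl and Nfil3 rose from week 8 to week 16 in anti-CD40L glands, by 1.46 ± 0.31 and 0.84 ± 0.28 (limma, adjusted p = 0.00135 and 0.0228). The Nfil3 call was lost without week 8 replicate 1, 3 or 5 or week 16 replicate 1 or 4, with an adjusted p of up to 0.0665 in limma. It was also lost in 4 of 11 other settings, the value being 0.64 with quantile normalization, 0.66 with array weights, 0.57 with Amy1 in the model and 0.74 without the 5 arrays of lowest correlation (limma, adjusted p = 0.0798, 0.0769, 0.145 and 0.135). Amy1, the amylase of the parotid, averaged 9.86 at week 16 and 13.42 at week 8 in anti-CD40L arrays, and with it in the model Arntl, Clock and Cry1 differed by 1.34, 1.19 and 1.03 over those weeks and were called. In control glands the Arntl difference between those weeks was -0.74 ± 0.31 and the Nfil3 difference 0.07 ± 0.28, neither called (limma, adjusted p = 0.0544 and 0.846). The Arntl difference in control glands passed in 7 of 11 other settings and in the fits without week 8 replicate 4 or week 16 replicate 5, with an adjusted p of 0.0312 and 0.0315 in limma. The dimmer Arntl probe set 1457740_at fell by 0.35 ± 0.14 there (limma over probe sets, adjusted p = 0.0446), with 1 of 5 arrays above the array median at week 16 and 3 of 5 at week 8. The representative Npas2 probe set was called in none of the 12 comparisons, its lowest adjusted p being that of week 16 against week 8 in control glands, at -0.31 ± 0.14 (limma, adjusted p = 0.0742), which passed without week 8 replicate 3 (limma, adjusted p = 0.0392).

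Whether the treatment difference changed between weeks was tested directly. From week 8 to week 16 it grew by 2.20 ± 0.44 for Arntl (limma, adjusted p = 0.043), in a comparison in which 0.146% of genes were called. Leaving out single arrays ended that call in 12 of 20 fits, the adjusted p running from 0.017 to 0.0913. Those arrays were week 8 anti-CD40L replicates 1, 3, 4 and 5, week 8 control replicates 3 and 5, week 16 anti-CD40L replicates 4 and 5, and week 16 control replicates 1, 2, 3 and 4. The call was also lost with the 3′ to 5′ difference in the model. For the other 4 genes it lay between 0.35 and 0.77 and was not called. No member was called for the change from week 8 to week 24, where 0.00769% of genes were called, or from week 16 to week 24, where 1.16% were.

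Between weeks 16 and 24 all 5 genes had lower means in anti-CD40L glands, and 2 of them were called. Nfil3 fell by 1.15 ± 0.28 with no overlap and Arntl fell by 1.10 ± 0.31 with overlap (limma, adjusted p = 0.0162 and 0.0363), where 5.38% of all genes were called. The share of all genes without overlap was not counted over those weeks. The Nfil3 call was lost without week 16 replicate 4, and the Arntl call without week 16 replicate 1, 4 or 5 or week 24 replicate 2, 3 or 5, with an adjusted p of up to 0.0612 and 0.118 in limma. In control glands Nfil3 fell by 1.44 ± 0.28 and Clock by 0.89 ± 0.24 over those weeks (limma, adjusted p = 0.0033 and 0.0186), where 12.4% of genes were called. The Clock call was lost without week 16 control replicate 5 or week 24 control replicate 3 (highest adjusted p = 0.0689 in limma). Cry1 differed by -0.73 ± 0.24 in anti-CD40L and -0.70 ± 0.24 in control glands without passing (limma, adjusted p = 0.0785 and 0.0555). It passed in anti-CD40L glands without week 16 replicate 2 or 3 (limma, adjusted p = 0.0435 and 0.0238) and in control glands without week 16 replicate 4 or week 24 replicate 2 (limma, adjusted p = 0.0347 and 0.0157).

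Over the whole span from week 8 to week 24, control glands ended lower in Arntl and Nfil3. Nfil3 in control arrays lay between 6.67 and 7.42 at week 24, against 8.29 and 8.76 at week 8, and the difference was -1.37 ± 0.28 (limma, adjusted p = 0.00347). Arntl in control arrays lay between 5.02 and 6.03 at week 24, against 5.72 and 6.83 at week 8, and the difference was -1.10 ± 0.31 (limma, adjusted p = 0.0222). The Arntl ranges overlapped through week 24 replicate 1, and the call was lost without replicate 2 of either week (highest adjusted p = 0.0549 in limma). In anti-CD40L glands Clock alone was called over that span, higher by 0.74 ± 0.24 (limma, adjusted p = 0.0278). That call was lost in 7 of 11 other settings and in the fits without week 8 replicate 1 or 3 or week 24 replicate 1 or 4 (highest adjusted p = 0.127 in limma). All genes were called at rates of 23.6% within anti-CD40L and 12.5% within control over that span.

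Ordered by mean, the anti-CD40L week 16 group was the highest of the 6 groups for each of the 5 genes by its representative probe set. The share of all genes with that group highest was not counted, so the order is a description. From week 8 to week 16, 36.5% of all genes were called within anti-CD40L. The lead was 0.08 for Npas2, and the other Arntl probe set, 1457740_at, was highest in control at week 8. For Arntl it stood 1.10 above the next group, anti-CD40L at week 24, which is more than the pooled SD of 0.53. The lowest Arntl groups were control at weeks 16 and 24, which differed from each other by 0.36, less than the pooled SD. For Nfil3 the lowest group, control at week 24, stood 1.26 below its neighbour, and the 4 groups between differed from their neighbours by 0.07 to 0.12, under the pooled SD of 0.48. For Clock control at week 16 and anti-CD40L at week 24 came next and differed by 0.12, and the 3 lowest groups, both of week 8 and control of week 24, differed by 0.02 and less, under the pooled SD of 0.40. For Npas2 by its representative probe set no neighbours differed by more than the pooled SD of 0.23. The means of 1421037_at were below the array median in every group but anti-CD40L at week 16. For Cry1 the week 16 groups of both treatments led the order and differed by 0.22, under the pooled SD of 0.41.

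Among the other clock genes the calls at week 16 ran the other way. Of 26 listed, 24 had a probe set and 22 were tested, of which 0 were called higher and 4 lower in anti-CD40L glands. Of all genes 1.88% were called in either direction there and 1.31% were called higher. The median difference was -0.30 over the 22, against 0.51 for the 5 genes and 0.02 for all genes tested. Dbp, the D-box activator and one of the 4, read 7.21, 9.34, 8.44, 5.96 and 6.16 in anti-CD40L arrays, against 11.25, 11.04, 10.6, 9.94 and 9.38 in control arrays. The difference was -3.02 ± 0.61 (limma, adjusted p = 0.00772). Tef, another D-box activator, Per3, of the repressor arm, and Nr1d2, which encodes REV-ERBβ, were the other 3, at -1.11 ± 0.22, -1.13 ± 0.30 and -0.87 ± 0.14 (limma, adjusted p = 0.00768, 0.0476 and 0.00109). The anti-CD40L arrays with the 3 highest Arntl values, replicates 4, 5 and 1, were those with the 3 lowest Dbp values. The control arrays with the 2 highest Arntl values, replicates 5 and 4, were the controls with the 2 lowest Dbp values. Nr1d1, which encodes REV-ERBα, differed by -0.62 ± 0.20 and Per2, of the repressor arm, by -0.43 ± 0.17, neither called (limma, adjusted p = 0.106 and 0.216).

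At week 24 Noct, a gene that cycles in many tissues, was called higher by 0.62 ± 0.18 (limma, adjusted p = 0.0354). Ciart, a repressor of the loop, differed by -0.90 ± 0.24 and Tspan4 by -0.74 ± 0.15, both called lower (limma, adjusted p = 0.0223 and 0.00566). The other 19 of the 22 were not called, where 9.45% of all genes were called, among them Dbp at -0.92 ± 0.61, Nr1d1 at -0.08 ± 0.20 and Per2 at -0.26 ± 0.17 (limma, adjusted p = 0.319, 0.82 and 0.32). The median over the 22 genes was -0.11, against 0.76 for the 5 genes and 0.03 for all genes tested. Tef, Per3 and Nr1d2, called lower with Dbp at week 16, were at -0.47 ± 0.22, -0.70 ± 0.30 and -0.29 ± 0.14 at week 24, where Arntl and Nfil3 were called higher. The change of the treatment difference from week 16 to week 24 was not called for Dbp, Tef, Per3 or Nr1d2 (2.10, 0.64, 0.43 and 0.58).

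**Figure D3:**
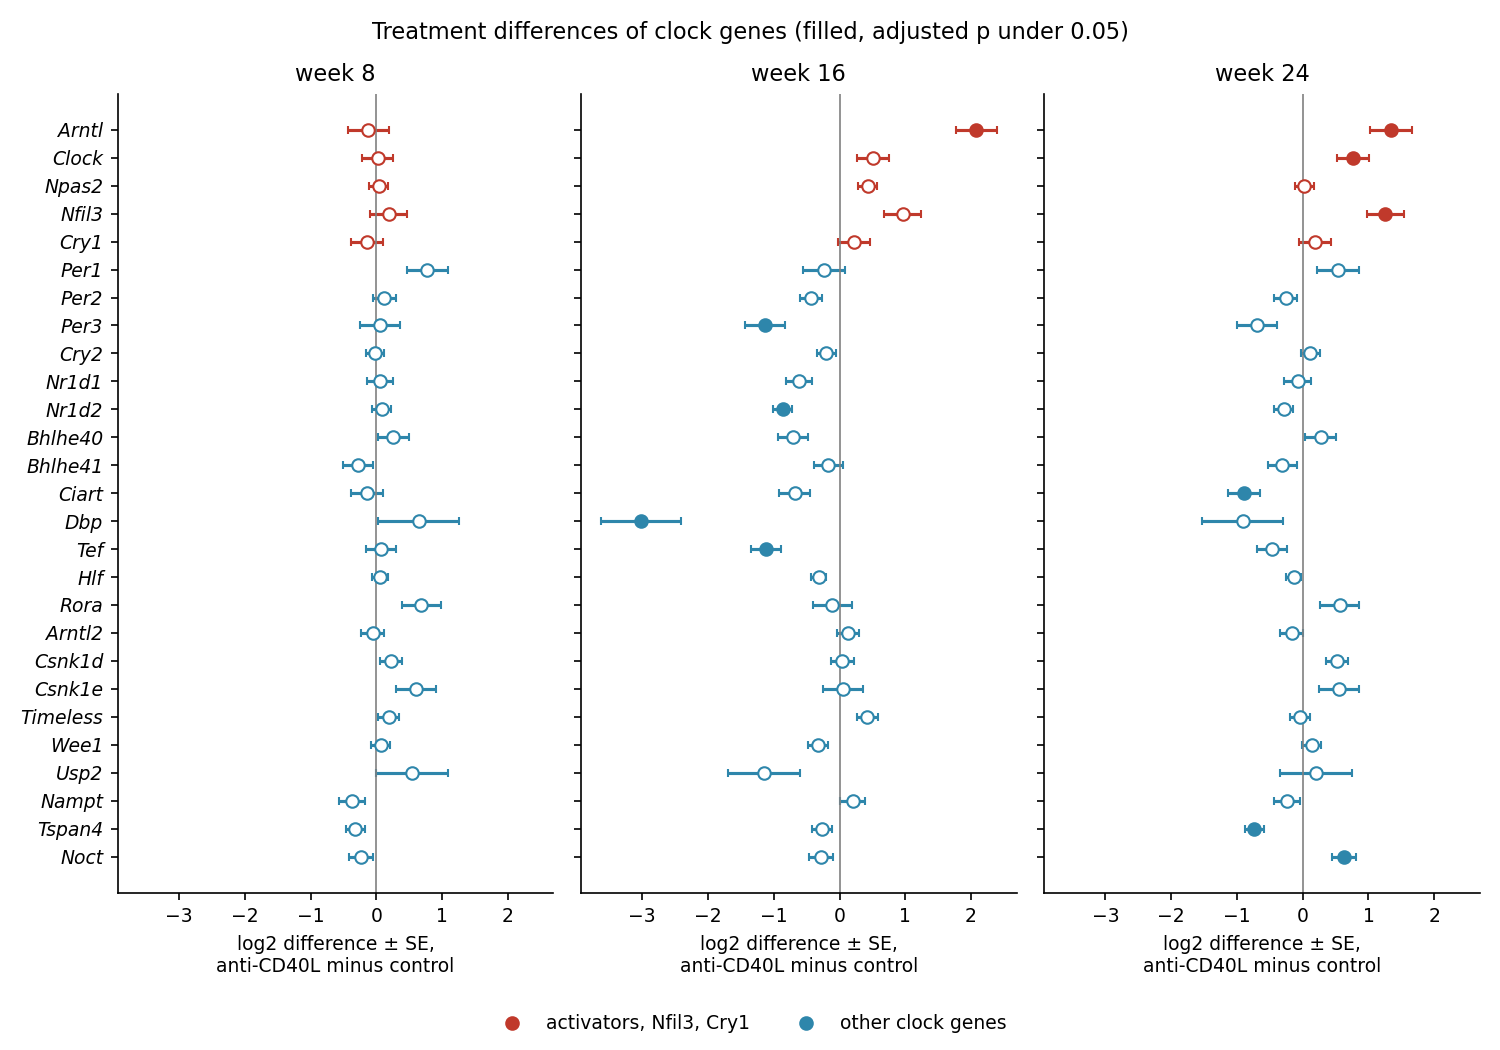
Log2 differences ± SE, anti-CD40L minus control, of the 5 genes (red) and of 22 other clock genes (blue) at weeks 8, 16 and 24, filled where the adjusted p was under 0.05. At week 16 Arntl lies furthest right at 2.08 and Dbp furthest left at -3.02, and at week 24 the filled red points are Arntl, Clock and Nfil3.

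Within control glands 15 of the 22 other clock genes were called higher at week 16 than at week 8 and 10 were called higher at week 24 than at week 8, with 0 lower in either. Of all genes 46.5% and 12.5% were called in these comparisons. With the 3′ to 5′ difference in the model 620 of all genes were called in the first, against 6047 without it. In the second these numbers were 715 and 1624. How many of the 22 stayed called under that model was not counted. Dbp was higher by 2.07 ± 0.61 at week 16 and by 2.18 ± 0.61 at week 24 (limma, adjusted p = 0.00789 and 0.0207), where the Arntl differences were -0.74 and -1.10. Usp2, a deubiquitinase gene under clock control, was higher by 2.64 ± 0.54 and 2.08 ± 0.54, its control arrays of week 24 running from 5.52 to 10.08. Rora, the gene of an activator at ROR elements, was higher by 1.50 ± 0.29 and Per1, of the repressor arm, by 1.15 ± 0.32 at week 16, and Per3 by 1.39 ± 0.30 at week 24. Between weeks 16 and 24 in these glands 1 of the 22 was called, Noct, which fell by 0.98 ± 0.18, against 12.4% of all genes.

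Within anti-CD40L glands 5 other clock genes were called higher and 1, Dbp, lower at week 16 than at week 8, 6 of 22 where 36.5% of all genes were called. Dbp differed by -1.59 ± 0.61, where Arntl rose by 1.46 (limma, adjusted p = 0.0429 for Dbp). From week 16 to week 24 in these glands Dbp rose by 2.21 ± 0.61, Tef by 0.79 ± 0.22, Nr1d2 by 0.58 ± 0.14 and Wee1, a cell cycle kinase gene under clock control, by 0.50 ± 0.15, where Arntl and Nfil3 fell. These were 4 of 22, where 5.38% of all genes were called, and at week 24 against week 8, 7 of 22 were called higher, where 23.6% of all genes were called. The change of the treatment difference from week 8 to week 16 was called for Nr1d2, at -0.95 ± 0.20 (limma, adjusted p = 0.0491), and was -3.66 ± 0.87 for Dbp, not called (limma, adjusted p = 0.0619). These comparisons share arrays with those of the 5 genes and with each other.

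Genes that respond to glucocorticoid or to temperature, which also vary over the day, were listed beside the clock genes. Of 10 glucocorticoid-responsive genes, 1 was called higher and 0 lower between treatments at week 16, and 2 higher and 0 lower at week 24, where 1.88% and 9.45% of all genes were called. The week 16 gene was Cdkn1a, at 0.49, and the week 24 genes were Errfi1 at 0.51 and Klf9 at 0.54. Of 5 tested temperature-responsive genes, 0 were called at week 16 and 2 were higher at week 24, the heat-shock genes Hspa1a at 0.81 and Hspa1b at 0.74. From week 8 to week 16 within control glands 6 of the 10 and all 5 were called, Cirbp, the gene of a cold-inducible RNA-binding protein, being the one that was lower, at -0.49. In anti-CD40L glands over those weeks 3 of the 10 and 3 of the 5 were called. Over that span 36.5% of all genes were called within anti-CD40L and 46.5% within control. From week 16 to week 24 in control glands 4 of the 10 were called, all lower. All 5 temperature-responsive genes were called there, 1 higher and 4 lower, where 12.4% of all genes were called. In anti-CD40L glands over those weeks 1 of the 10 was called lower, and 1 of the 5 higher and 1 lower, where 5.38% of all genes were called. These lists were not refitted with the 3′ to 5′ difference in the model.

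Deviations from the group mean were compared between arrays of the same group, which leaves out every difference between groups. Over 30 arrays, 5 of 15 pairs among the 5 genes and Dbp passed a within-group permutation test with Benjamini-Hochberg adjustment. Arntl and Nfil3 deviated together (r = 0.73, Spearman's rho = 0.72, permutation p = 6e-05, adjusted p = 0.0009). Arntl and Dbp deviated oppositely (r = -0.73, rho = -0.65, permutation p = 0.00016, adjusted p = 0.0012), as did Nfil3 and Dbp (r = -0.59, rho = -0.56, permutation p = 0.00031, adjusted p = 0.00155). Pooled over the 6 groups, arrays of the same antibody and week thus differed in Arntl in step with Nfil3 and against Dbp. The correlation was not tested within each group. In control arrays of week 8, replicate 4 was lowest in Arntl (5.72), and its Dbp of 7.71 was below the group mean of 8.37. In control arrays of week 24, replicate 1 was highest in Arntl (6.03) and lowest in Dbp (8.37). The remaining Arntl values there lay between 5.02 and 5.26. Clock deviated with Nfil3 (r = 0.57, rho = 0.57, permutation p = 0.00176, adjusted p = 0.0066) and with Arntl (r = 0.51, rho = 0.51, permutation p = 0.015, adjusted p = 0.045).

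Without the 2 arrays farthest from the median on the horizontal measure, r was 0.67 for Arntl with Nfil3, -0.64 for Arntl with Dbp, -0.52 for Nfil3 with Dbp, 0.60 for Clock with Nfil3 and 0.47 for Arntl with Clock. The same 5 pairs passed. No pair with Cry1 passed, its r with Dbp being -0.07 and with Arntl 0.12. Npas2 by its representative probe set had r = 0.30 with Arntl, and by probe set 1421037_at, chosen after its values were seen and mostly below the array median, r = 0.81 (rho = 0.83). Without the 5 arrays of lowest correlation with the others the Arntl and Clock pair no longer passed (r = 0.42, permutation test, adjusted p = 0.0567), and 2 pairs with the representative Npas2 probe set did. These were Npas2 with Arntl (r = 0.56, permutation test, adjusted p = 0.0122) and with Dbp (r = -0.61, permutation test, adjusted p = 0.00555). The pair of Arntl and Dbp had r = -0.94 over those 25 arrays, and the other 3 pairs passed as before.

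**Figure D4:**
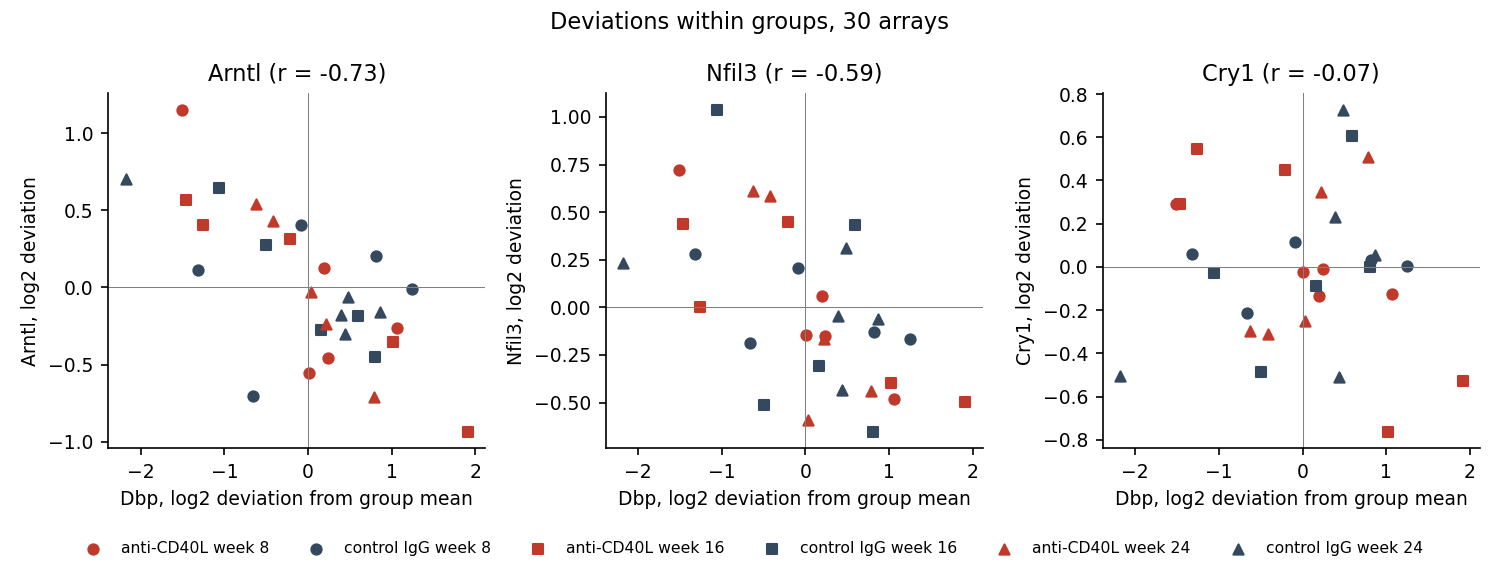
Deviation of each array from its group mean (log2) for Arntl, Nfil3 and Cry1 on the vertical axes, against the deviation of Dbp on the horizontal axis, for 30 arrays, red for anti-CD40L and dark blue for control, with a symbol for each week. Points slope downward for Arntl (r = -0.73) and Nfil3 (r = -0.59), and r is -0.07 for Cry1.

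Over all 30 arrays, the genes most like each member are named as a description, since the arrays share treatment, week and whatever else set the groups apart. Arntl was most like Sphk1 (Pearson's r = 0.88), Fads2b (0.84) and Cldn1 (0.83) among 12998 genes, and least like Dbp (-0.83) and Tef (-0.80). Nfil3 stood 4th in the list of Arntl (0.81), and Arntl stood 5th in that of Nfil3. Nfil3 was most like 2700038G22Rik (0.85), Cldn1 (0.83) and Sphk1 (0.82), and least like Tmem86a (-0.89) and Glipr1 (-0.81). Cldn1, a tight junction gene, and Sphk1, a sphingosine kinase gene, were thus among the leading genes of both.

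Clock and Cry1 had other neighbours. Clock was most like Mob1b, Cald1 and Kif21a (0.92, 0.91 and 0.91) and least like 1700036A12Rik and Acad10 (both -0.87), and Arntl stood 2539th in its list. Cry1 was most like Aen, Ube2g2 and Dusp3 (0.89, 0.87 and 0.87) and least like Pdzk1ip1 (-0.80) and Arid3b (-0.79), and Clock stood 348th. The representative Npas2 probe set reached 0.67 with each of H1f2, Nudt22 and Tedc2, and it was least like Prss23 and Nr1d2 (both -0.75).

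Of the antibody's target and its receptor, Cd40lg was below the filter, with group means of 4.70 to 4.92, and was not tested. Cd40 was lower in anti-CD40L glands at week 24, at -0.59 ± 0.16 (limma, adjusted p = 0.0229), and was not called at weeks 8 and 16. The acinar and granular duct markers with a probe set were above the array median in all 30 arrays. Amy1 ranged from 6.58 to 13.7, and its means were 13.42 in anti-CD40L and 11.36 in control arrays at week 8, 9.86 and 9.995 at week 16, and 10.43 and 10.14 at week 24. With Amy1 in the model the Arntl difference was 2.07 at week 16 and 1.35 at week 24, both called.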

How the data were processed

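The deposited table holds 1 column per array, and every column was matched to a sample by its label. Its values were taken as log2 intensities as deposited by the authors, from their range of 2.76 to 14.5 and array medians of 5.49 to 5.54. The submitters' processing notes name limma. The summary of probes and the normalization are not given in the sources used here, and the number of arrays limits the precision. Of 45101 probe sets, 34958 named 1 gene in the platform table and were used, 932 named several and 9211 none. Each gene was represented by its probe set with the highest mean over 30 arrays and tested if that lay above the array median in at least 5 arrays. A model of 6 group means over the 30 arrays was fitted in limma 3.58.1 (R 4.3.3), with 12 contrasts and Benjamini-Hochberg adjustment over 12999 genes (21830 probe sets), and called at an adjusted p under 0.05. Correlations used 100000 permutations within groups, and array measures an exact two-sided permutation test whose smallest p is 0.00794. The procedure was tested on simulated data with noise drawn independently for each gene and array. That test does not cover differences of RNA quality or cell content between arrays. Replicate numbers did not pair arrays: 3 of 15 pairs of equal number correlated above 0.1. The members, lists, tests and named genes (the 5 genes in every comparison, called other clock genes with Dbp, Per2 and Nr1d1, and the 3 most and 2 least correlated genes of each member) were chosen with earlier results of these data known. Promoter windows came from RefSeq, GRCm38.p6.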

Additional observations from a re-analysis of the deposited data

Results flagged for a closer look

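Among 78 groups of 5 arrays checked, 3 held an array whose gap to its nearest neighbour was large for the range of the group, and chance flags about 1 group in 20. Clock was 6.02 in anti-CD40L week 8 replicate 1, with the other 4 arrays at 7.15 or above. Arntl was 6.03 in control week 24 replicate 1, the highest of its group, and Dbp was 8.37 in the same array, the lowest of its group. That array also had the largest 3′ minus 5′ difference of its group, 0.610, and its part in these values was not tested. The Arntl change of the treatment difference from week 8 to week 16 was tested itself and passed, at 2.20 (limma, adjusted p = 0.043).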

How the results depend on the processing

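Over 79 results and 1801 recomputed values, 1654 kept their side of the threshold or stayed within 1.5 times of their count, and 0 reversed. A reversal was counted only where the main or the alternative value was called. An uncalled gene whose sign changed therefore counted as kept, so these numbers do not show that directions held. Arntl from week 8 to week 24 in anti-CD40L glands, for example, was 0.36 and ran down to -0.08, uncalled. Arntl at week 16 remained called under all 11 alternatives and all 10 fits without 1 array. The median over probe sets, 1 of the 11, is for Arntl the mean of its 2 probe sets, of which 1457740_at differed by 0.06. At week 16 the members called between treatments numbered 2 with the median over probe sets, with only the groups compared and with every probe set tested on its own, 3 with array weights, and 1 to 2 without 1 array. At week 24 they were 0 with the 3′ minus 5′ difference as covariate. Within anti-CD40L from week 8 to week 24 they were 0 with quantile normalization, the median over probe sets, only the groups compared, array weights, the 3′ minus 5′ or Amy1 covariate, or without arrays of low correlation (5 arrays with median correlations of 0.953 to 0.972, an alternative chosen after seeing the data), and 0 to 1 without 1 array. From week 16 to 24 they were 1 with the replicate block and 0 to 3 without 1 array. Within control they were 4 with only the groups compared and 0 with the 3′ minus 5′ covariate from week 8 to 16. From week 8 to 24 they were 1 with only the groups compared and 1 to 2 without 1 array, and from week 16 to 24 they were 1 with the 3′ minus 5′ covariate and 1 to 3 without 1 array. The change from week 8 to 16 gave 0 with the replicate block, the 3′ minus 5′ covariate or without arrays of low correlation, and 0 to 1 without 1 array. With the replicate block the other counts of members stayed within 1.5 times, the week 24 count being 2. Probe sets called at week 16 were 1 with a filter at the 70th percentile and 4 with array weights, and at week 24 they were 0 with the 3′ minus 5′ covariate and 2 to 5 without 1 array. The probe set counts with array weights and without 1 array take in the Npas2 probe set that met the filter only through anti-CD40L week 16. So do the week 16 counts of members with the median over probe sets or with every probe set. Correlated pairs were 8 with the other Npas2 probe set, also chosen after seeing the data, and 6 without arrays of low correlation, 4 of them shared. Causes were not tested beyond the construction of each alternative. Values near the array median, as for Npas2, limit what can be measured.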
